A study of Mus musculus with 6 samples.

Results

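The cytosolic ribosomal protein genes are the genes for the proteins of the ribosome that works in the cytoplasm. They were taken by symbol, that is, every row named Rpl or Rps with a number, the stalk genes *Rplp0*, *Rplp1* and *Rplp2*, and *Rpsa*, leaving out rows named as pseudogenes and the kinases of the Rps6k family. This gave 79 of the 19446 genes of the table. Of these, 46 code for proteins of the large subunit and 31 for proteins of the small subunit, and the remaining 2, *Rps3a2* and *Rps3a3*, are annotated as processed pseudogenes in GENCODE M21.

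The RNA came from cultured cardiac fibroblasts (CFs), with 3 libraries from wild type (WT) and 3 from CharmeKO mice, all 5 weeks old by the sample titles. For the explant cultures, the methods give an age range that includes 5 weeks. CharmeKO mice carry a polyadenylation signal inserted into the locus of *Charme*, a long non-coding RNA, and both genotypes were on the C57BL/6J background. According to the methods, cells grew out of atrial tissue fragments that had been pooled from littermates, on fibronectin-coated plates in medium with serum, so that a library stands for a pooled culture and not for a mouse. The comparison of CharmeKO with WT asked how the transcriptome of these cells differs when *Charme* is lost. The feature taken as *Charme*, CUFF405, had 4.92, 16.0 and 12.1 normalised reads in WT 1, 2 and 3, against 0, 5.90 and 2.61 in CharmeKO 1, 2 and 3, and was therefore near the detection limit in both groups.

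The values are read counts per gene divided by a size factor per library and are called normalised reads below. The whole reads behind them could be recovered, with totals of 38330019 to 46797446 per library. Of 8 endothelial, 8 cardiomyocyte and 10 macrophage markers on the lists used, 6, 3 and 10 were in the table. In CPM, that is, reads scaled to a common library total, the 12 fibroblast markers summed to 25537 to 54197, the macrophage markers to 25.4 to 429.6 and the 3 cardiomyocyte markers to 3.22 to 18.5. The 10 smooth muscle and pericyte markers spread from 157 CPM in CharmeKO 2 to 4345 CPM in WT 3. Libraries also differed in sex chromosome transcripts, since *Ddx3y* was at 92.3 normalised reads in WT 3 against 2081 to 3204 elsewhere, and *Xist* at 7.86 in CharmeKO 2 against 2162 to 28789.8 elsewhere. In pooled RNA, fewer cells of a type and less RNA per cell cannot be told apart.

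Each ribosome carries a single copy of nearly every ribosomal protein, and only the stalk proteins Rplp1 and Rplp2 are present in more copies. Cells therefore make these proteins in similar amounts, and their mRNAs are among the most abundant of a growing cell. The mRNAs start with a run of pyrimidines, the 5′ terminal oligopyrimidine (TOP) motif, through which the kinase mTORC1 and the RNA-binding protein Larp1 control their translation and stability together. Proteins made in excess are degraded, and free Rpl5 and Rpl11 bind Mdm2, the ligase that keeps p53 low.

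The sequence around the transcription start was examined first, because the pyrimidine run is the feature by which the family is recognised. RefSeq start sites (GRCm38.p6), with 250 bases before and 50 bases after the start, were matched by symbol for 57 of the 79 genes. A run of at least 8 pyrimidines on the transcribed strand, lying within 20 bases of an annotated start, was found in 28 of the 57 (49.1%), against 18.4% of all 27025 genes with such a sequence. The following starts, each a stretch of 30 bases read 5′ to 3′ on the strand of the gene with the longest pyrimidine run near the start in capitals, show both kinds.
Rps6, chr4:86857349-86857378, minus strand: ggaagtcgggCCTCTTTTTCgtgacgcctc
Rplp2, chr7:141447636-141447665, plus strand: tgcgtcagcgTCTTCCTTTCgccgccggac
Rpl38, chr11:114668568-114668597, plus strand: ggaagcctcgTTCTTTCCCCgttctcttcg
Rps27, chr3:90213632-90213661, minus strand: ttccgctttcgCTCCTTTCCggcggtgacg
Rpl15, chr14:18270968-18270997, minus strand: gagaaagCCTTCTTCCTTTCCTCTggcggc
Rps10, chr17:27635227-27635256, minus strand: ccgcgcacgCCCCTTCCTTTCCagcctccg
Rplp0, chr5:115559466-115559495, plus strand: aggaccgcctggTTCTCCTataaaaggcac
Rps2, chr17:24720055-24720084, plus strand: cgagatctcgcgCTTCTTggagcactataa
The first 6 hold runs of 9 to 17 pyrimidines. The runs of *Rplp0* and *Rps2* have 7 and 6 bases and lie 12 and 5 bases into the annotated transcript. An annotated start can lie some bases away from the start that a cell uses, so that a missing run says only that these letters are not in the window.

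Short motifs were searched on both strands of the same 300-base windows, and none of them contains another. The letters CCGGAAG, the core of the sites of ETS factors, were in 24 of the 57 windows (42.1%) against 9.93% of all genes. The letters TCGCGAGA were in 11 (19.3%) against 1.13%, and GATGGCGG, a form of the YY1 site, in 2 (3.51%) against 1.97%. The TATA box letters TATAAA were in 6 windows (10.5%), against 15.7% of all genes. These matches describe the windows and were not tested as binding sites.

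Almost all of the family was read at high levels. Of the 79 genes, 75 had a mean over the 6 libraries of 3827 to 63754 normalised reads. The other 4 were the 2 pseudogenes, *Rpl24* and *Rpl13a*. *Rpl24* had 3.94, 11.7 and 17.6 normalised reads in WT and 9.61, 22.6 and 18.3 in CharmeKO, and *Rpl13a* had 490, 468 and 748 in WT and 612, 485 and 430.5 in CharmeKO. Both are proteins of the large subunit, and Rpl13a is also known for repressing translation of inflammatory mRNAs. In GENCODE M21 (GRCm38), another gene on the same strand covers 71.5% of the model of *Rpl24* and 59.3% of that of *Rpl13a*. The counting used by the authors drops reads that fall in 2 genes, so their levels here are uncertain. Another gene, *Rps10*, is covered for 91.6% in that annotation and nevertheless had 11758 to 15001 normalised reads in every library. Statements on the 75 genes below leave out *Rpl24*, *Rpl13a*, *Rps3a2* and *Rps3a3*.

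Levels between genes were compared per kilobase of the shortest annotated transcript that carries the main coding sequence. By this measure, *Rplp1* was the highest, with 56256 ± 9013 normalised reads per kilobase in WT (mean ± SD, n = 3) and 56641 ± 18259 in CharmeKO. *Rps2*, a protein at the mRNA entry channel, followed with 50398 ± 8686 and 53795 ± 10503, and *Rplp0*, the base of the stalk, with 44281 ± 917 and 49612 ± 2007. In WT, the values of *Rps2* overlapped with those of *Rplp1* and of *Rplp0*, whereas *Rplp1* lay above *Rplp0* in every WT library. In CharmeKO 3 the order of *Rplp1* and *Rplp0* was reversed. The next, *Rpl41*, codes for the smallest ribosomal protein, of 25 residues, and had 40253 ± 1800 in WT and 43527 ± 6228 in CharmeKO. The median of the 75 genes over all libraries was 17073 per kilobase. At the low end, *Rpl39*, whose protein lines the exit tunnel, had 7362 ± 332 in WT and 7730 ± 1913 in CharmeKO. *Rps20* was lower, at 3140 ± 402 and 3020 ± 597, but its only model is 3706 bases long with 357 coding bases, so that its level per length is not reliable. *Rplp2*, the partner of *Rplp1* in the stalk, ranked 14 of 79 by level per kilobase.

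Together, the 79 genes took a similar share of the reads in the 3 WT libraries and a more variable one in CharmeKO. Their share was 2.68%, 2.77% and 2.71% in WT 1, 2 and 3, and 3.02%, 3.03% and 2.42% in CharmeKO 1, 2 and 3. CharmeKO 1 and 2 were therefore above, and CharmeKO 3 below, all WT libraries. The means were 2.72 ± 0.0457% in WT and 2.83 ± 0.352% in CharmeKO (SD, n = 3), a difference of 0.105 percentage points that was smaller than the spread in CharmeKO. Without CharmeKO 3 the difference was 0.308 points. The bar plot of shares gives the same values split by subunit.

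**Figure D1:**
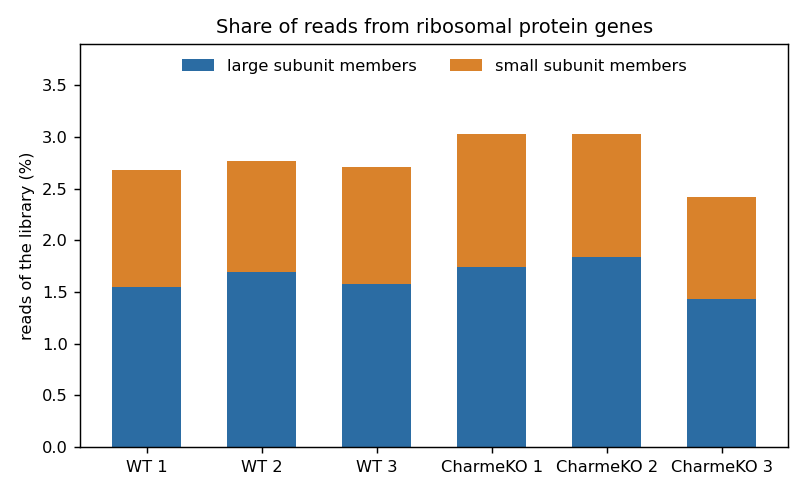
Percent of each library's reads (y axis, starting at 0) that fell on ribosomal protein genes, stacked by subunit, for the 3 WT and 3 CharmeKO libraries (x axis). The 3 WT bars reach 2.68 to 2.77%, CharmeKO 1 and 2 reach 3.02 and 3.03%, and CharmeKO 3 reaches 2.42%.

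Each gene was then compared between the genotypes with limma on log2(normalised reads + 1), fitted over the 15948 genes that had at least 10 reads in at least 2 libraries and adjusted over all of them by the method of Benjamini and Hochberg. All 79 ribosomal protein genes passed this filter. None of the 79 passed an adjusted p of 0.05 (background 0.0% of genes, 0 of 15948), with 0.9999 as the smallest adjusted p among them. Before adjustment, 0 of the 79 lay under 0.05, against 0.897% of all genes. On the recovered reads, edgeR's quasi-likelihood test called 0 of the 79, as did the DESeq2 Wald test, which called 0.0504% of all genes. With the replicate number as a block, 0 of the 79 lay under an unadjusted 0.05 in limma, against 5.37% of all genes, and 0 passed the adjusted threshold in DESeq2, against 0.426%.

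The differences were small. Of the 79 genes, 47 were above and 32 below zero, with a median log2 difference (CharmeKO minus WT) of 0.017, against 0.002 over all genes tested. The large subunit (46 genes, median 0.016) and the small subunit (31 genes, median 0.032) were alike in this. For 77 of the 79 genes the log2 difference was within 0.25 of zero, and 0 reached 1 in size, as 5.04% of all genes did. The 95% intervals had a median half-width of 0.519, and those of all genes but *Rpl29*, *Rpl24* and the 2 pseudogenes lay wholly between -1 and 1. Log2 differences of 1 or more in size were thus outside the interval for these genes, while smaller ones within it could not be told from zero.

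**Figure D2:**
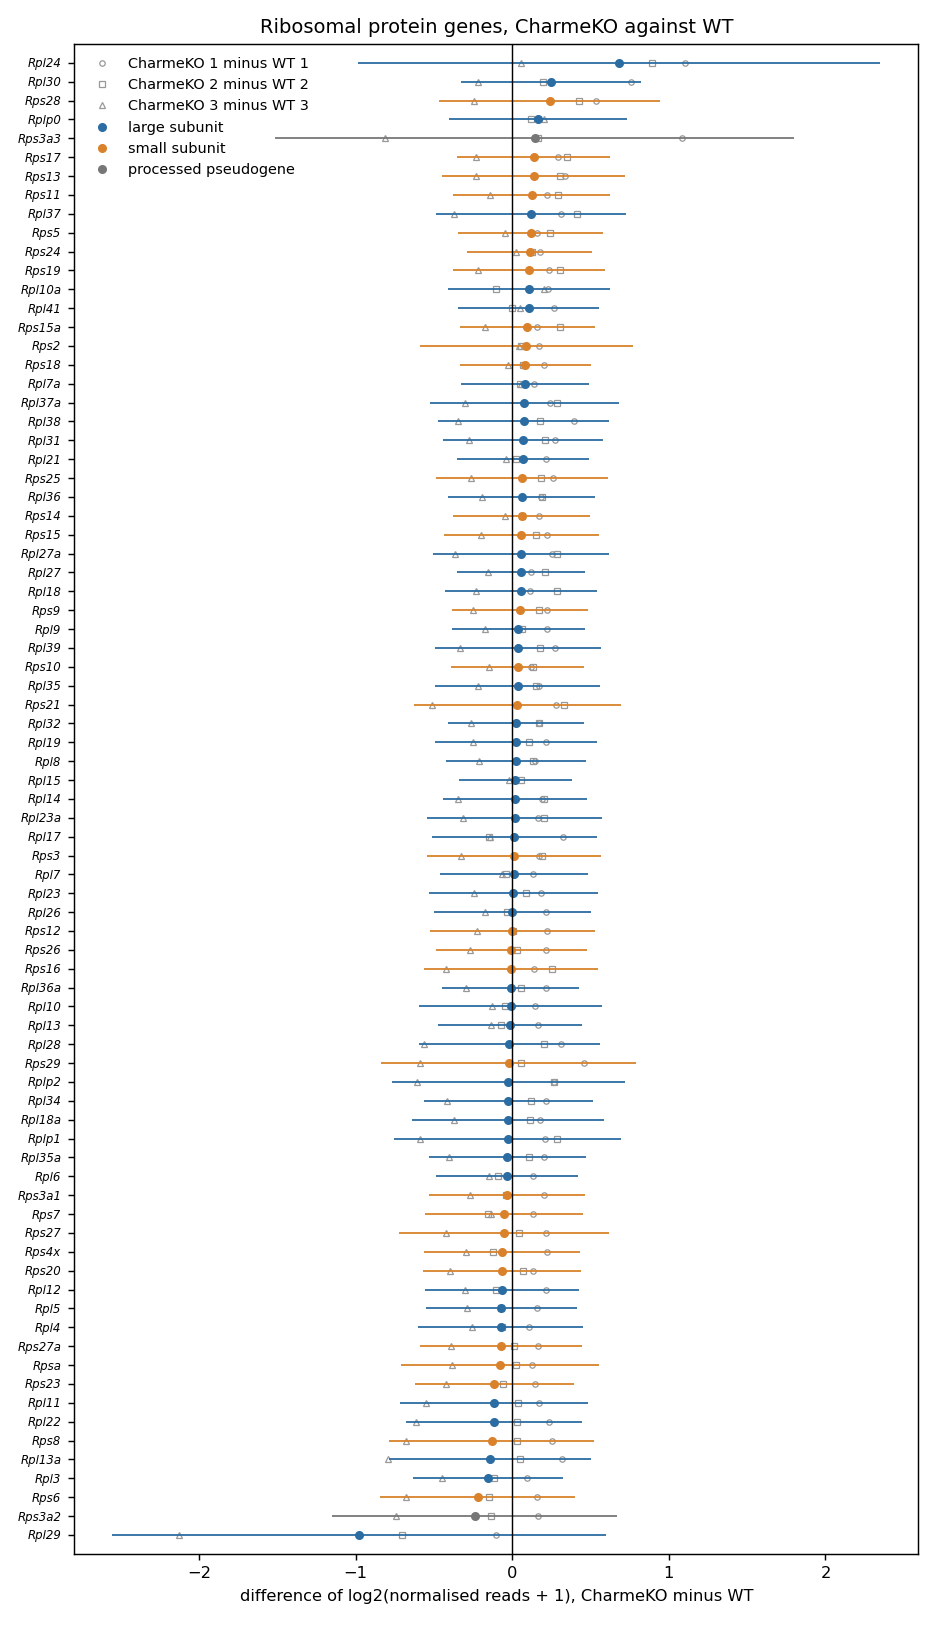
Difference of log2(normalised reads + 1) between CharmeKO and WT (x axis) for each of the 79 ribosomal protein genes (y axis), with filled points for the limma estimate, lines for its 95% interval and open symbols for the differences between libraries of equal number. Of the estimates, 77 lie within 0.25 of zero, *Rpl29* stands at -0.98 and *Rpl24* at 0.68, and the triangles of the libraries numbered 3 lie mostly left of zero.

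The stalk genes did not move as a group. *Rplp0* had 58769, 60422 and 61209 normalised reads in WT 1, 2 and 3, and 66008, 65601 and 70511 in CharmeKO 1, 2 and 3. All 3 CharmeKO libraries were above all WT libraries, by little. The log2 difference was 0.16 (SE 0.238, limma adjusted p = 0.9999). *Rplp1* had 32277, 23330 and 28607 in WT and 37270, 28471 and 19051 in CharmeKO, so that the groups overlapped and CharmeKO held both the highest and the lowest value. *Rplp2* had 12627, 8088 and 11529 in WT and 15206, 9731 and 7561 in CharmeKO, with the same order of libraries as *Rplp1* within CharmeKO. Their log2 differences were -0.031 and -0.025, and their sign turned under other scalings.

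*Rplp0* was 1 of the 2 genes whose groups did not overlap. The other was *Rpl7a*, which codes for a protein of the large subunit, with 19301, 21247 and 20543 normalised reads in WT and 21266, 21994 and 21354 in CharmeKO. WT 2 lay just below CharmeKO 1, and the log2 difference was 0.082 (SE 0.170). Of all genes, 4.11% did not overlap. The 2 of 79 were higher in CharmeKO, where 2.14% of all genes were higher without overlap, and 0 of 79 were lower without overlap, against 1.98%. The count was near the background. Within libraries of equal number, 5 genes (*Rpl24*, *Rplp0*, *Rps2*, *Rps24* and *Rpl7a*) were higher in CharmeKO in all 3 pairs, against 16.4% of all genes, and only *Rpl29* was lower in all 3, against 14.0%.

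*Rpl29* stood apart from the other members. It codes for a small, basic protein of the large subunit, whose loss in mice is known to reduce growth, and lies at chr9:106429454-106431568 on the plus strand (GRCm38). It had 9758, 10949 and 6672 normalised reads in WT 1, 2 and 3, and 9080, 6731 and 1526 in CharmeKO 1, 2 and 3. CharmeKO 3 was the lowest library and WT 3 the next, so that the range over the 6 libraries was 7.17-fold, while no other of the 75 genes ranged over more than 2.52-fold. The log2 difference was -0.98 (SE 0.657, limma adjusted p = 0.9999), with a 95% interval from -2.55 to 0.60. The differences between libraries of equal number were -0.10, -0.70 and -2.13. Without CharmeKO 3 the log2 difference was -0.19. With the replicate number as a block its unadjusted p was 0.0693 in limma and 0.0132 in DESeq2, with adjusted p of 0.7997 and 0.515. *Acy1* and *Pcbp4*, which lie near it on the chromosome, are given as examples that were chosen after its values had been seen. Not all genes around it were looked at, so these examples do not describe the whole region. *Acy1* ranged from 539 to 972 normalised reads and was at 848.0 in CharmeKO 3, and *Pcbp4* ranged from 3764 to 6616 and was at 6399 in CharmeKO 3, so that neither was low there.

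The lowest differences after *Rpl29* were those of the pseudogene *Rps3a2* (-0.24), *Rps6*, *Rpl3* and *Rpl13a*. *Rps6*, the small subunit protein that is phosphorylated by S6 kinase downstream of mTORC1, had 14871, 11797 and 15049 normalised reads in WT and 16600.1, 10662 and 9397 in CharmeKO (log2 difference -0.22, SE 0.261). *Rpl3*, next to the peptidyl transferase centre, had 20626, 24622 and 24382 in WT and 22035, 22658 and 17898 in CharmeKO (log2 difference -0.16, SE 0.199). In both, CharmeKO 3 was the lowest library and CharmeKO 1 lay above WT 1. *Rpl13a* was at -0.14 with the low read numbers given above.

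The highest differences were those of *Rpl24*, with its few reads, *Rpl30* and *Rps28*. *Rpl30*, a large subunit protein that also helps to decode selenocysteine, had 5303, 7663 and 6856 normalised reads in WT and 8962, 8789 and 5887 in CharmeKO (log2 difference 0.24, SE 0.239). *Rps28*, a protein of the small subunit head, had 4686, 5967 and 4629 in WT and 6776, 8025 and 3907 in CharmeKO (log2 difference 0.24, SE 0.294). For both, CharmeKO 1 and 2 were above all WT libraries. CharmeKO 3 was the lowest library of *Rps28*, while for *Rpl30* it lay above WT 1 only.

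Genes of known roles, too, had log2 differences within 0.25 of zero. *Rpl5* and *Rpl11*, which with the 5S rRNA form the particle that binds Mdm2, had log2 differences of -0.069 (SE 0.201) and -0.12 (SE 0.251). *Rpl5* ranged from 16877 to 21254 in WT and from 15323 to 20184 in CharmeKO, and *Rpl11* from 8418 to 11282 and from 7514 to 12704. *Rps14* and *Rps19*, the small subunit genes known from 5q- syndrome and Diamond-Blackfan anaemia, were at 0.060 (SE 0.183) and 0.11 (SE 0.202). *Rpsa*, also known as the laminin receptor, had 55208, 44168 and 54623 in WT and 60178, 44929.8 and 41906 in CharmeKO. The X-linked genes *Rps4x* and *Rpl10* were at -0.066 (SE 0.207) and -0.011 (SE 0.244). *Rpl38*, known for its part in the translation of Hox mRNAs, had 4004, 3825 and 3800 in WT and 5252, 4321 and 2990 in CharmeKO. *Rps27a*, which is made as a fusion with ubiquitin, had 12204, 12109 and 11322 in WT and 13665, 12182 and 8630.5 in CharmeKO. For *Rpsa*, *Rpl38* and *Rps27a*, CharmeKO 1 was the highest and CharmeKO 3 the lowest library, and the groups overlapped.

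*Rpl15*, by contrast, was the steadiest. This large subunit protein had 12411, 12720 and 13132 normalised reads in WT and 12639, 13224 and 12936 in CharmeKO, a range of 1.07-fold from the lowest to the highest library. The median of that range over the 75 genes was 1.48-fold, against 1.64-fold over 6507 other genes with a mean of at least 1000 normalised reads. The level plots of chosen genes set *Rpl15* beside *Rpl29*.

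**Figure D3:**
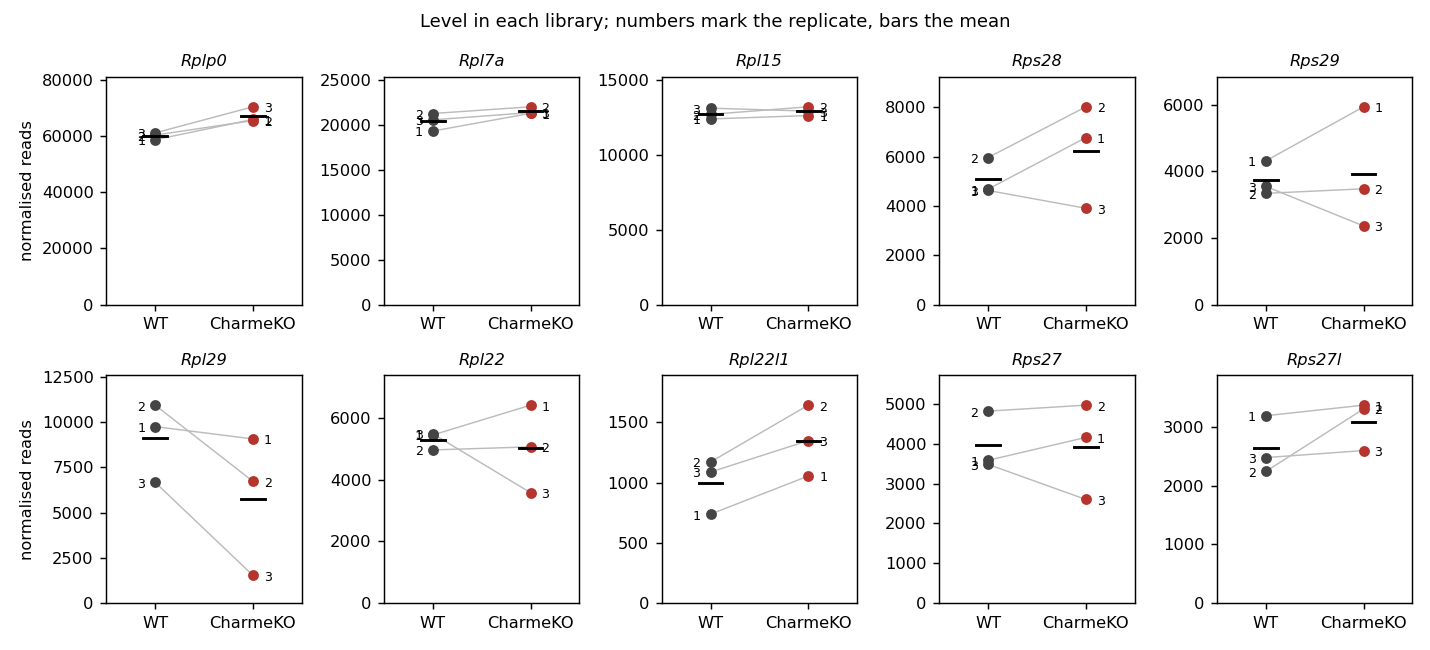
Normalised reads (y axis, starting at 0) in each WT and CharmeKO library for 10 genes, with replicate numbers beside the points, grey lines between libraries of equal number and black bars for the group means. *Rplp0* and *Rpl7a* do not overlap between the groups, *Rpl15* ranges over 1.07-fold, *Rpl29* is at 1526 normalised reads in CharmeKO 3, and *Rpl22l1* is higher in CharmeKO for each number.

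What the genes shared was their pattern over libraries. Against each gene's own mean over the 6 libraries, the median of the 79 genes was at 0.003, 0.008 and -0.024 (log2) in WT 1, 2 and 3, and at 0.21, 0.084 and -0.29 in CharmeKO 1, 2 and 3. CharmeKO 3 was the lowest of the 6 libraries for 57 of the 75 genes (76.0%). Of the 6507 other genes with a mean of at least 1000 normalised reads, it was the lowest for 13.5%. These others were not matched in level to the 75 genes, whose lowest mean was 3827. CharmeKO 1 or 2 was the highest for 61 of the 75 (81.3%), against 35.5% of those other genes. The spread between libraries was wider in CharmeKO for 65 of the 75 genes (86.7%), against 53.9% of the others, with a median SD of 0.276 against 0.144 in WT (log2), where the others had 0.294 and 0.282. The median log2 differences between libraries of equal number over the 79 genes were 0.20, 0.11 and -0.26 for numbers 1, 2 and 3, so that the near-zero difference between genotypes was an average of opposite ones. With CharmeKO 3 left out the median was 0.15, and with both libraries numbered 3 left out, an alternative chosen after seeing the data, it was 0.14. Without CharmeKO 1 it was -0.086, and without CharmeKO 2 it was -0.032.

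**Figure D4:**
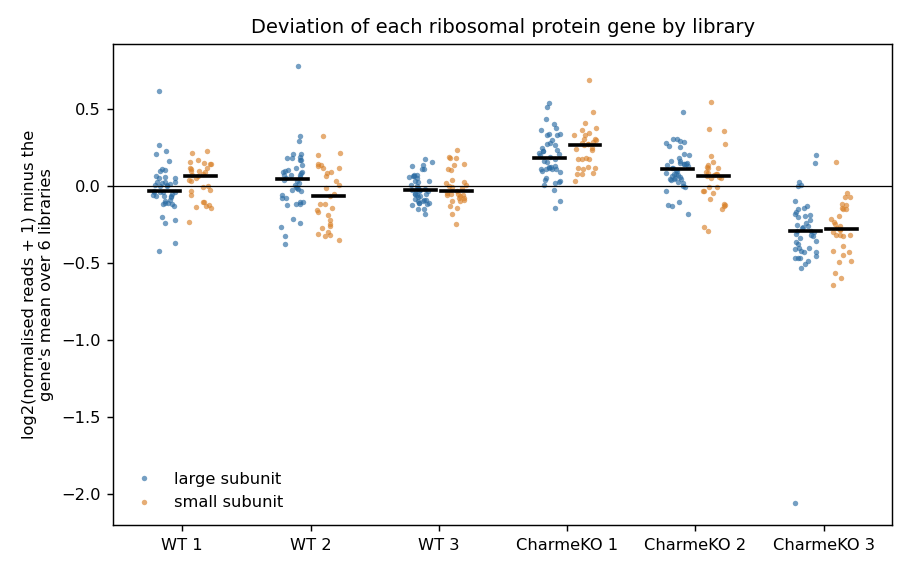
Deviation of each of the 75 ribosomal protein genes from its own mean over the 6 libraries (y axis, log2 of normalised reads + 1) by library (x axis), with points coloured by subunit and black bars for the medians. The points lie mostly above zero in CharmeKO 1 and mostly below zero in CharmeKO 3, where *Rpl29* is the point near -2.

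Short and long mRNAs were set side by side in the libraries that stood apart. With *Rps20* left out, the median deviation in CharmeKO 3 was -0.38 for the 28 genes with models under 600 bases and -0.25 for the 15 with models over 1000 bases. In CharmeKO 1 the same groups were at 0.28 and 0.12. All of the 28 short ones were lower in CharmeKO 3 than in the mean of CharmeKO 1 and 2, with log2 differences from -2.36 (*Rpl29*) to -0.075 (*Rpl41*) and a median of -0.60. The 15 long ones ran from -0.67 to 0.10 with a median of -0.31. The other genes here are those with a mean of at least 1000 normalised reads. Of them, the 337 with models under 1000 bases were at a median of -0.13 in CharmeKO 3 and 0.31 in CharmeKO 1. The 4955 with models of 2000 bases or more were at 0.041 and 0.0025. The short other genes and the short ribosomal protein genes did not move together in every library, since in WT 2 the former were at -0.29 and the latter at 0.022, and in WT 1 at 0.17 and 0.010. Macrophage markers also varied with these libraries. All 10 were in the table, and their sum was 429.6, 329 and 25.4 CPM in CharmeKO 1, 2 and 3 and 202, 119 and 45.0 CPM in WT 1, 2 and 3, with the pan-leukocyte marker *Ptprc* at 0 and *Lyz2* at 278 normalised reads in CharmeKO 3. The part of mRNA length and of macrophages in the result was not tested.

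The replicate number was the second pattern. Of the pooled sum of squares of the 79 genes, 61.5% followed the number and 9.73% the genotype, against 67.7% and 10.6% over all genes. Genes of wide spread, such as *Rpl29*, weigh most in this sum. The median share per gene was 61.9% for the number and 2.77% for the genotype, against 73.8% and 5.91% over all genes. The number has more levels than the genotype, so its share would be larger even without an effect. Across the 79 genes, deviations of same-numbered libraries from their group means correlated with r = 0.741, 0.810 and 0.479 for numbers 1, 2 and 3. The pattern was thus weakest for number 3. Going from number 1 to number 2, most genes shifted in the same direction in both genotypes. Across the 75 genes the difference of WT 2 from WT 1 and that of CharmeKO 2 from CharmeKO 1, which share no library, correlated with r = 0.84, where genes are not independent replicates. *Rplp2* was at -0.64 in both genotypes, *Rps2* at -0.45 in WT and -0.56 in CharmeKO, and *Rps6* at -0.33 and -0.64. *Rpl10* went the other way, at 0.56 in WT and 0.38 in CharmeKO, as did *Rps27* at 0.43 and 0.26.

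The subunits had different medians. The 31 small subunit genes had medians of -0.16 in WT and -0.18 in CharmeKO, with 17 lower and 7 higher in number 2 in both genotypes. The 44 large subunit genes had medians of 0.062 and -0.028, with 16 lower and 17 higher in both. As a result, the log2 ratio of small to large subunit reads was lower in the libraries numbered 2, at -0.65 in WT and -0.62 in CharmeKO, than in number 1 (-0.45 and -0.44) or number 3 (-0.49 and -0.53). The ratio hardly differed between the genotypes at any number. The labels do not say what libraries of equal number share. Proliferation genes were also low in the libraries numbered 2, where the 30 genes of that list had sums of 474 (WT) and 469 (CharmeKO) CPM, against 1004 to 1206 CPM elsewhere, and the part of proliferation in the subunit ratio was not tested.

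Some members have paralogs that can take their place in the ribosome. *Rpl22l1*, the paralog of *Rpl22*, had 738, 1171 and 1088 normalised reads in WT 1, 2 and 3 and 1055, 1644 and 1349 in CharmeKO, while *Rpl22* had 5449, 4964 and 5486 in WT and 6417, 5063 and 3576 in CharmeKO. The reads of *Rpl22l1* thus came to 13.5%, 23.6% and 19.8% of those of *Rpl22* in WT and to 16.4%, 32.5% and 37.7% in CharmeKO. The ratio was higher in CharmeKO in each of the 3 pairs, by 0.28, 0.46 and 0.93 (log2), but the groups overlapped. When a library was left out, the mean difference of 0.56 (log2) was 0.32 (without CharmeKO 3) to 0.92 (without CharmeKO 1). It had an exact permutation p of 0.3, or 0.5 when adjusted over the 2 ratios tested, where 3 against 3 libraries cannot go below 0.1. *Rps27l*, a p53 target related to *Rps27*, had 3197, 2245 and 2482 normalised reads in WT and 3378, 3313 and 2602 in CharmeKO. Its log2 ratio to *Rps27* differed by 0.29 (exact permutation p = 0.5), with differences of -0.14, 0.52 and 0.49 in the pairs, and was 0.032 without WT 2 and 0.50 without WT 1. Since both lie in the same library, these ratios do not depend on the scaling.

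*Rpl7l1*, the paralog of *Rpl7*, had 2937, 2255 and 2538 normalised reads in WT and 3072, 2385 and 2943 in CharmeKO, and *Rpl36al* 2225, 1906 and 1916 in WT and 2493, 1840.4 and 1577 in CharmeKO. *Rps4l*, a close copy of *Rps4x*, was erratic, with 652, 5.34 and 347 in WT and 900, 131 and 625 in CharmeKO. Its lowest value in each genotype was that of library 2. *Rpl39l*, known from the testis, had at most 21.1 normalised reads in any library, and *Rpl37rt* and *Rps27rt* 133 to 262. Of the 7 paralogs tested, 0 passed the adjusted threshold, 6 were above zero, and the median log2 difference was 0.12, or -0.094 without WT 2.

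*Fau* and *Rack1* code for proteins of the ribosome that bear other names. *Fau*, which codes for Rps30 fused to a ubiquitin-like protein, had 10682, 11714 and 10175 normalised reads in WT and 12378, 12763 and 8515 in CharmeKO, again with the lowest value in CharmeKO 3. *Rack1*, a scaffold at the small subunit head, had 30448, 32718 and 32169 in WT and 32711, 30717 and 30272 in CharmeKO, and was thus nearly level. The log2 difference was 0.026 (SE 0.211) for *Fau* and -0.025 (SE 0.190) for *Rack1*.

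The wider machinery was described by the lists below, in which limma called 0 genes at the adjusted threshold. The background for the unadjusted threshold is the 0.897% given above. The 41 translation factors had a median log2 difference of 0.016, with 26 above zero. With the replicate block in DESeq2, where 0.426% of all genes were called, 1 of the 41 passed. It was *Eif2s3x*, a subunit of eIF2 encoded on the X chromosome by a gene that escapes X inactivation, with 7155, 3594 and 5882 normalised reads in WT and 4799, 2658 and 3918 in CharmeKO (adjusted p = 0.0120), and the sex chromosome transcripts of these libraries differed as given above. *Eef1a1*, the elongation factor that brings tRNA, had 194415, 228709.9 and 234801 normalised reads in WT and 211597, 210841 and 242073 in CharmeKO. The 28 other genes known for TOP mRNAs had a median of -0.0016, and in CharmeKO 3 a median deviation of -0.076, where the ribosomal protein genes were at -0.29. *Tpt1* was among them and was at its highest in CharmeKO 3, with 72171 normalised reads against 51008 to 56334 elsewhere. TOP genes that are not ribosomal protein genes were thus not as low there. Their models were also longer, with a median of 1585.5 bases against 751 for the 79 ribosomal protein genes. Neither this difference in level nor the part of mRNA length in it was tested. *Larp1* was nearly level, at 9364 to 11309 in WT and 8657 to 10760.5 in CharmeKO.

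The 22 genes of rRNA transcription by RNA polymerase I had a median of 0.081 (0.022 without WT 2), and the 104 ribosome assembly factors 0.032, with 61 above zero. *Ncl*, *Npm1* and *Fbl*, which code for abundant nucleolar proteins, had log2 differences of 0.067 (SE 0.244), 0.065 (SE 0.168) and 0.25 (SE 0.320). *Ddx47*, a helicase of pre-rRNA processing, had 1420.1, 1576 and 1536 in WT and 1752, 1979 and 1779 in CharmeKO (log2 difference 0.28, SE 0.146), with no overlap between the groups. Of the 104, 4 were higher and 1 lower without overlap, against 2.14% and 1.98% of all genes. The assembly factors were low in the libraries numbered 2 (median deviation -0.26 in WT and -0.20 in CharmeKO) and not in CharmeKO 3 (0.012). The 33 genes of the mTORC1 pathway had a median of 0.024, and *Mtor* itself had 3360, 2606 and 3202 in WT and 2925, 2444 and 4549 in CharmeKO. The 10 genes of the Mdm2 and p53 arm had a median of 0.14, with 7 above zero, but 0.016 without CharmeKO 2 and 0.26 without CharmeKO 1, and the median in the pair numbered 1 was -0.030. *Mdm2* had 11466, 12957 and 10404 in WT and 10108, 18787 and 10842 in CharmeKO, and *Cdkn1a*, the p53 target that halts the cell cycle, 15233, 16119 and 17236 in WT and 15933, 23427 and 11001 in CharmeKO. Both were highest in CharmeKO 2. *Bbc3*, which codes for the p53 target Puma, had 1041, 762 and 891 in WT and 955, 1257 and 1366 in CharmeKO (log2 difference 0.40, SE 0.216). When a library was left out, the medians of 4 of these lists turned sign, from -0.072 (without CharmeKO 1) to 0.10 (without CharmeKO 2) for translation factors, -0.052 (without CharmeKO 1) to 0.046 (without WT 3) for other TOP genes, -0.096 (without WT 2) to 0.17 (without WT 1) for assembly factors and -0.031 (without WT 2) to 0.095 (without CharmeKO 2) for the mTORC1 pathway.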

How the data were processed

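RNA had been made from cultured CFs of 3 WT and 3 CharmeKO cultures with a poly(A), strand-keeping kit. Per the labels and methods, the authors aligned with STAR, counted reverse-strand reads per gene on Ensembl 87 annotation, filtered out low genes and used DESeq2 for normalisation. What they deposited is a normalised read signal: each library's counts over its size factor. The submitters' processing notes name GRCm39 and GRCh38, and the methods a GRCm39-like name, whereas Ensembl 87 is on GRCm38. Positions printed here are from GENCODE M21 (GRCm38) by gene identifier or from RefSeq (GRCm38.p6), not from the files. Dividing each library by its smallest positive value gave whole reads for 100% of 116676 values (tolerance 1e-06).

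Library totals were 38330019 to 46797446 reads. A count of 0 allows up to 3 reads (0.0641 to 0.0783 CPM), for counting error only, since reads without molecular identifiers are not independent molecules. Groups and numbers came from the titles. Nothing says that each library came from a separate litter, so p-values measure the spread between these libraries. limma 3.58.1 (R 4.3.3) with a mean-variance trend was run on log2(value + 1), which understates changes of low genes, with genotype as the only term, two-sided, over the 15948 genes in which 2 or more libraries had 10 or more reads. Alternatives were edgeR 4.0.16 and DESeq2 1.42.0 on recovered reads, other scalings, pseudocounts and filters, the replicate block and leaving out each library. The fits were tested on simulated data. Members and lists were chosen with earlier results of these data known.

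Deviations of same-numbered libraries from their group means correlated across all genes with r = 0.762, 0.514 and 0.217 for numbers 1, 2 and 3. All were over 0.1, so the numbers were taken to pair the libraries. WT 2 with CharmeKO 3 had r = 0.222, so the data do not single out WT 3 as the partner of CharmeKO 3. The other unequal numbers had r from -0.643 to -0.0762. The pairing rests on the data, as the labels do not say what equal numbers share, and it is weakest for number 3. Genes named are members of known role, those with the 5 highest and 5 lowest differences, the 3 highest and 3 lowest levels per length and the 3 widest spreads, those without overlap between the groups, paralogs, ribosomal proteins of other names and the 3 genes of lowest p per list. Other genes were chosen after their values had been seen, and a gene of the rule is not reported here. No protein sequences were used here.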

Additional observations from a re-analysis of the deposited data

How the results depend on the processing

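The count of ribosomal protein genes past the adjusted threshold was 0 in all 12 alternatives and in all 6 fits that left out a library, and the count over all genes was 0 except in DESeq2, with 8 by the Wald test and 64 once the replicate block was added. The replicate block changed no call of a ribosomal protein gene, and their lowest adjusted p was 0.7997 with it in limma. The median log2 difference of these genes was 0.013 to 0.053 over the alternatives that kept all libraries, and -0.086 to 0.15 when a library was left out. The difference of their share of reads was 0.000845 to 0.308 percentage points when a library was left out, the highest without CharmeKO 3. Of 39 named genes, 7 turned sign, to values near zero, under another scaling or test. These were *Rack1* (0.0093 by library totals, 0.011 by totals without the members), *Rpl10* (0.024 and 0.025), *Rps3a1* (0.00035 by totals without the members), *Rplp1* (0.0039 and 0.0054 by totals, 0.012 with edgeR, 0.0054 with DESeq2), *Rplp2* (0.0099, 0.011, 0.013 and 0.0068), *Rps26* (0.027, 0.029, 0.010 and 0.0036) and *Rps29* (0.012, 0.013, 0.072 and 0.067). The sign of 26 named genes turned when a library was left out, with lowest and highest log2 differences of *Fau* (-0.078 to 0.21), *Rpl10* (-0.15 to 0.15), *Rpl11* (-0.33 to 0.044), *Rpl13a* (-0.28 to 0.072), *Rpl22* (-0.32 to 0.11), *Rpl23* (-0.12 to 0.19), *Rpl38* (-0.11 to 0.30), *Rpl39* (-0.092 to 0.26), *Rpl4* (-0.13 to 0.020), *Rpl41* (-0.0070 to 0.19), *Rpl5* (-0.15 to 0.046), *Rplp1* (-0.26 to 0.23), *Rplp2* (-0.30 to 0.20), *Rps14* (-0.025 to 0.15), *Rps19* (-0.018 to 0.25), *Rps2* (-0.063 to 0.26), *Rps26* (-0.10 to 0.15), *Rps27* (-0.25 to 0.21), *Rps27a* (-0.21 to 0.12), *Rps29* (-0.37 to 0.29), *Rps3* (-0.15 to 0.10), *Rps3a1* (-0.13 to 0.12), *Rps3a3* (-0.43 to 0.46), *Rps4l* (-0.18 to 3.16), *Rps4x* (-0.14 to 0.067) and *Rpsa* (-0.24 to 0.026). The cause was not tested. With 3 libraries per group, the intervals and not the read depth limit what can be told apart, except for *Rpl24* and *Rps3a3*, which had fewer than 25 normalised reads in every library.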

Other observations

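The ribosomes of mitochondria have their own proteins, encoded in the nucleus under the names Mrpl and Mrps. Of the 79 such genes in the table, 0 passed the adjusted threshold in limma and 1 had an unadjusted p under 0.05, while 73 were above zero with a median log2 difference (CharmeKO minus WT) of 0.15, against 0.002 over all genes. In 44 of the 79 the CharmeKO library was higher in all 3 pairs of equal number, where 16.4% of all genes were, and 8 were higher without overlap between the groups, where 2.14% of all genes were. *Mrps24*, a protein of the small mitochondrial subunit, had 1139, 1048 and 987 normalised reads in WT 1, 2 and 3 and 1358, 1323 and 1472 in CharmeKO 1, 2 and 3 (log2 difference 0.39, SE 0.154, limma adjusted p = 0.9999). *Mrps17* had 1134, 1308 and 1141 in WT and 1339, 1611 and 1479 in CharmeKO. The median deviation of the 79 mitochondrial genes was 0.12, -0.25 and -0.087 in WT 1, 2 and 3. In CharmeKO 1, 2 and 3 it was 0.24, -0.0023 and -0.021, so that WT 1 lay above CharmeKO 2 and 3. The genes of the list are not independent replicates. The cytosolic genes were at -0.29 in CharmeKO 3. When a library was left out, the median log2 difference of the mitochondrial list was 0.067 (without CharmeKO 1) to 0.27 (without WT 1).

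The 85 nuclear genes of the respiratory chain and ATP synthase that were tested had a median log2 difference of 0.18, with 77 above zero, 27 higher in all 3 pairs and 0 past the adjusted threshold. Of the 85, 1 was higher without overlap between the groups, where 2.14% of all genes were, and the median in the pair numbered 3 was -0.025. When a library was left out, the median was 0.066 (without WT 2) to 0.31 (without WT 1). *Cox8a*, a subunit of cytochrome c oxidase, had 5105, 4552 and 4924 normalised reads in WT and 5814, 7456 and 5422 in CharmeKO. The genes encoded in mitochondrial DNA, of which 10 were tested, had a median of 0.12, which turned to -0.11 without CharmeKO 2 and to -0.065 without WT 3. The part of mRNA length and of cell composition, which also varied between these libraries, was not tested.

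Smooth muscle and pericyte markers went the other way. All 10 were below zero, with a median log2 difference of -1.85, but 0 passed the adjusted threshold in limma. In DESeq2 with the replicate block 2 of the 10 passed, where 0.426% of all genes did. The median differences between libraries of equal number were -0.36, -2.23 and -3.12. The marker sums were 2355, 525 and 4345 CPM in WT 1, 2 and 3 and 2168, 157 and 541 CPM in CharmeKO 1, 2 and 3, so the groups overlapped. *Cspg4*, a proteoglycan of pericytes, had 450.1, 676 and 3663 normalised reads in WT and 241, 105 and 25.2 in CharmeKO, and *Actg2* 663, 221 and 1321 in WT and 182, 53.1 and 134 in CharmeKO. The median without WT 3 or another library was between -2.48 and -1.15.

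Rows named as pseudogenes of ribosomal protein genes were left out of the family, but bear on how its reads were assigned. There were 123 of them, of which 68 passed the filter, and their reads came to 0.677 to 1.18% of those of the 79 genes. Their sum was 192, 196 and 318 CPM in WT 1, 2 and 3 and 205, 253 and 210.5 CPM in CharmeKO 1, 2 and 3. WT 3 was the highest library for 51 of the 68. *Rps7-ps3* had 1089.8 normalised reads in WT 3 and 138 to 179 in the others, and without it the sum in WT 3 was still 293 CPM. The other 881 processed pseudogenes summed to 743 CPM in WT 3 and 503 to 672 CPM in the others. Reads that match a gene and its copy equally are dropped by the counting used, so that these rows hold only reads that differ between copies or that were placed at the copy.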
